A study of Mus musculus with 12 samples.

Results

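The 10 genes described here encode proteins of the BCL2 family, which decide in mitochondria whether a cell survives or enters apoptosis. They were chosen by name, as the rows of the value files with the symbols Mcl1, Bcl2l1, Bcl2, Bax, Bak1, Bcl2l11, Bid, Bad, Bbc3 and Pmaip1, and all 10 were found among 23997 genes. Their mRNA was measured by RNA-seq in bone marrow-derived macrophages (BMDMs) of male C57BL/6 mice aged 8 to 10 weeks, grown for 7 d with recombinant human macrophage colony-stimulating factor at 10 ng/ml. Cells came from WT mice or from Pim1-/- mice, which lack the serine/threonine kinase Pim1 in all cells after CRISPR/Cas9 deletion of exons I to V. They were left untreated or were treated with LPS, the bacterial ligand of TLR4, at 100 ng/ml for 4 h, which gave 4 groups of 3 libraries. The labels do not say whether the 3 libraries of a group came from separate mice or cultures, so p-values measure the spread between these libraries, which may be technical.

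Survival proteins of the family (MCL1, BCL-XL encoded by Bcl2l1, and BCL2) hold the pore-forming effectors BAX and BAK in check at the outer mitochondrial membrane. BH3-only proteins (BIM encoded by Bcl2l11, BID, BAD, PUMA encoded by Bbc3 and NOXA encoded by Pmaip1) bind the survival proteins, and some of them also activate the effectors, after which cytochrome c leaves the mitochondria and caspases are activated. Much of this control acts on the proteins. BAD is phosphorylated by Pim kinases, AKT and other kinases and is then held by 14-3-3 proteins, BID is cut by caspase-8, and MCL1 is turned over rapidly by ubiquitin ligases. Only mRNA was measured here.

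Pim1, the deleted gene, was at 25.0, 21.5 and 22.3 FPKM in the untreated WT libraries and at 8.70, 8.00 and 9.51 FPKM in the untreated Pim1-/- libraries. LPS-treated WT libraries had 665, 630 and 641 FPKM, and LPS-treated Pim1-/- libraries 216, 205 and 236 FPKM, so that each Pim1-/- library lay below each WT library of its treatment. There is 1 value for each gene, so where in Pim1 the remaining fragments lie could not be seen. Pim1 exons overlap those of Gm26885 on the opposite strand over 488 nt, and no value for that gene was used here. Whether the counting used strand is not given in the sources used here. On log2(FPKM + 1), Pim1 rose with LPS by 4.76 in WT and by 4.50 in Pim1-/- cells. FPKM are fragments scaled to transcript length and library. FPKM sums over all genes ran from 452511 to 849323 and were larger after LPS. From the steps between low values, 1 fragment on 1 kb of transcript was worth 0.0217 to 0.0476 FPKM. Genes that mark dividing cells moved with the genotype. All 10 of the list were higher in untreated Pim1-/- cells, against 34.6% of all genes tested as described below. After LPS 9 of 10 were higher, against 37.6%, while Mki67 was at -0.12. Bub1, counted among them, averaged 0.749 FPKM in untreated WT and 0.312 FPKM in LPS-treated WT cells. It passed the filter described below only through Pim1-/- libraries, so its differences carry no test. The summed level of that list of 10 was 137 to 152 FPKM in untreated WT, 725 to 803 in untreated Pim1-/-, 369 to 374 in LPS-treated WT and 675 to 756 in LPS-treated Pim1-/- libraries. Pcna made up most of it, rising with LPS in WT cells from a mean of 110 to 313 FPKM. There 7 of the 10 fell, against 45.4% of all genes. The summed level of 10 macrophage markers was 28080 to 30120 FPKM in untreated WT against 14540 to 15430 FPKM in untreated Pim1-/- libraries, and 31620 to 32090 against 16310 to 18150 FPKM after LPS, with none at 0. Most of that sum was Lyz2, at 26301 (WT) and 13297 FPKM (Pim1-/-) untreated. Of the 10 markers 9 were lower in untreated Pim1-/- cells, against 44.2% of all genes. Among them were Csf1r by -1.59 and Cd68 by -0.28, while Cd14 did not pass (-0.06). After LPS 10 were lower, against 43.4%, or 8 lower and 1 higher with TPM. Markers of 7 other cell types (mast cells with basophils, erythroid, stromal, B, dendritic, T with NK cells, and neutrophils) stayed under 10 FPKM in each group, and the largest summed level was 9.85 FPKM, for the stromal list in LPS-treated WT cells. The part of any of these lists in the results below was not tested. In bulk libraries, fewer cells of a type and less RNA per cell cannot be told apart.

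Fold changes below are differences of group means on log2(FPKM + 1). The added 1 shrinks the change of scarce genes. They come from limma across 10581 genes that reached 1 FPKM in 3 or more libraries, with p-values adjusted by the method of Benjamini and Hochberg (BH). A gene passed at an adjusted p under 0.1, and was called when it also changed more than 2-fold with p under 0.05. All 10 members passed the filter. Bcl2 did so only through the untreated Pim1-/- libraries, the group in which it was high, so it is described with no test and left out of the counts of members. Rescaling each library to a fixed total (TPM) moved the median change of all genes by LPS to -0.71 in WT and -0.62 in Pim1-/- cells, and that between genotypes after LPS to 0.13, while quantile normalization moved the LPS medians to -0.18 in both genotypes. Directions that turned under either scaling are named with their results.

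**Figure D1:**
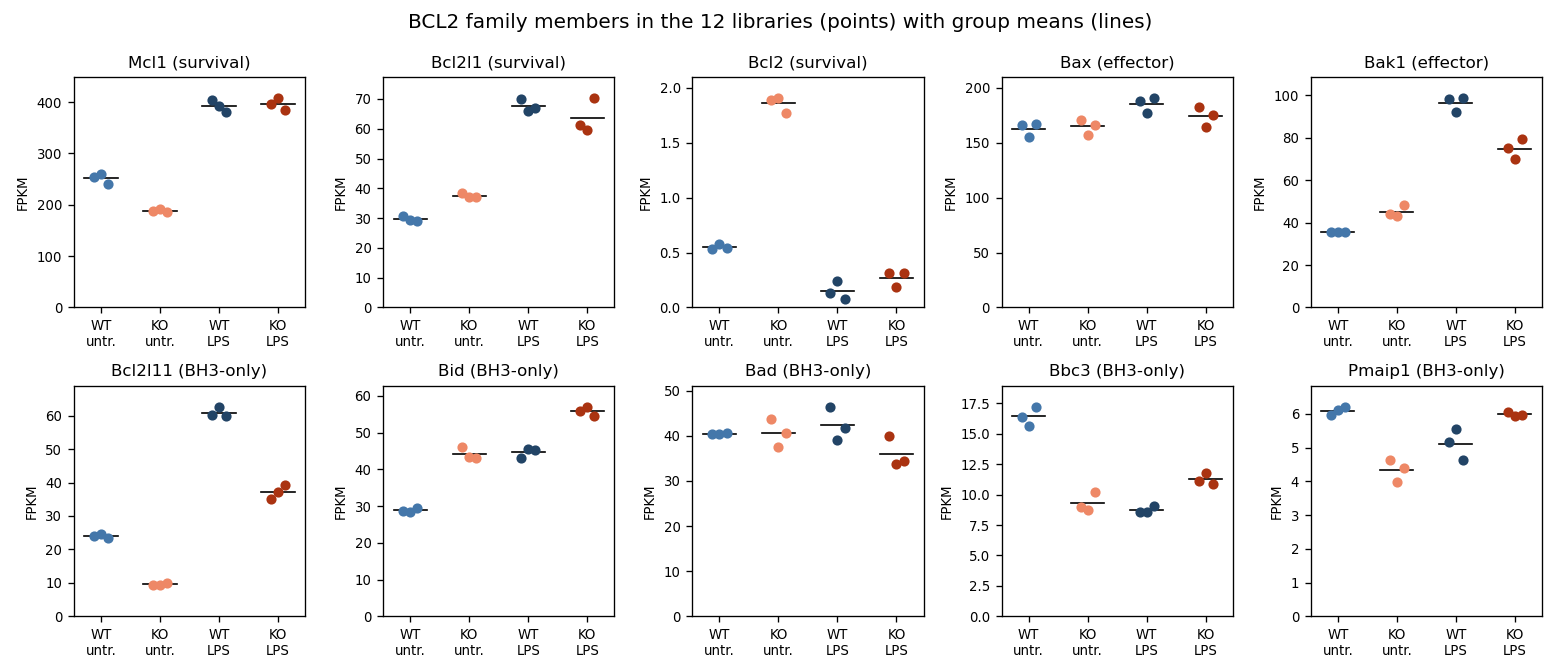
FPKM (y axes from 0, a scale of its own for each gene) of the 10 BCL2 family members in each of the 12 libraries (points) by group (x axes; untr., untreated; KO, Pim1-/-), with the group means as lines. Bcl2l11 was lower in Pim1-/- than in WT cells with and without LPS, whereas Bbc3 was lower in untreated and higher in LPS-treated Pim1-/- cells, and Bad and Bax stayed within 33.8 to 46.4 FPKM and 156 to 191 FPKM.

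Among the 3 survival genes of the 10, Mcl1 was the most abundant, and its untreated level was lower in Pim1-/- cells. It was at 253, 261 and 241 FPKM in untreated WT and at 188, 192 and 186 FPKM in untreated Pim1-/- libraries. LPS-treated libraries had 404, 392 and 381 FPKM (WT) and 396, 408 and 385 FPKM (Pim1-/-). The untreated genotypes did not overlap, while the LPS-treated ones did. Mcl1 fell by 0.41 on the log2 scale in untreated Pim1-/- cells (SE 0.04, adjusted p = 2.8e-07, limma with BH adjustment). After LPS the difference was 0.02 (SE 0.04, adjusted p = 0.75, limma), but 0.29 with quantile normalization and 0.22 with TPM, both of which passed. The response to LPS was 0.64 in WT and 1.07 in Pim1-/- cells, larger by 0.43 in the latter (SE 0.06, adjusted p = 1.4e-05, limma). In WT cells this response was -0.66 with quantile normalization and -0.17 with TPM, the latter 0.54 above the median of all genes, so its direction rests on the scaling. In Pim1-/- cells it stayed positive, at 0.22 with quantile normalization and 0.40 with TPM.

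Bcl2l1, which encodes BCL-XL, rose with LPS in both genotypes. It was at 30.6, 29.3 and 29.1 FPKM in untreated WT, 38.3, 37.1 and 37.1 FPKM in untreated Pim1-/-, 69.8, 65.8 and 67.0 FPKM in LPS-treated WT and 61.2, 59.5 and 70.3 FPKM in LPS-treated Pim1-/- libraries. The Pim1-/- libraries lay above WT without treatment, and after LPS replicate 3 of Pim1-/- lay above all WT libraries and the other 2 below them. Untreated Pim1-/- cells had 1.27 times the WT mean, a log2 fold change of 0.33 (SE 0.05, adjusted p = 5.2e-05, limma). LPS raised Bcl2l1 by 1.16 on the log2 scale in WT and by 0.74 in Pim1-/- cells, a difference in response of -0.42 (SE 0.08, adjusted p = 2.3e-04, limma). The rise in Pim1-/- cells was 0.09 with TPM, which did not pass, though 0.71 above the median of all genes. After LPS the genotypes differed by -0.09 (SE 0.05, adjusted p = 0.15, limma), by -0.16 without LPS-treated Pim1-/- replicate 3 (adjusted p = 0.0031, limma), and by 0.16 with quantile normalization and 0.12 with TPM.

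Bcl2, the founding member of the family, was scarce in every group. It was at 0.534, 0.581 and 0.544 FPKM in untreated WT and at 1.89, 1.91 and 1.78 FPKM in untreated Pim1-/- libraries, which did not overlap. After LPS it was at 0.136, 0.239 and 0.0750 FPKM in WT and 0.312, 0.188 and 0.313 FPKM in Pim1-/- libraries, which overlapped. The ratio of the untreated means was 3.36, and the difference on log2(FPKM + 1) was 0.88. With LPS Bcl2 went from a mean of 0.553 to 0.150 FPKM in WT and from 1.86 to 0.271 FPKM in Pim1-/- cells. These LPS-treated values rest on about 4.16 to 26.6 fragments per library if all came from the shortest coding transcript, and 11 to 70.4 if from the longest. Bcl2 exons overlap those of D630008O14Rik on the opposite strand over 558 nt, and no value for that gene was used here.

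Of the effectors, Bax differed little between any groups. Its values ran from 156 to 167 FPKM in untreated WT, 157 to 171 FPKM in untreated Pim1-/-, 177 to 191 FPKM in LPS-treated WT and 164 to 183 FPKM in LPS-treated Pim1-/- libraries. The genotypes overlapped with and without LPS, with log2 differences of 0.02 (SE 0.05, adjusted p = 0.75) untreated and -0.09 (SE 0.05, adjusted p = 0.11) after LPS by limma. The latter passed without WT replicate 2 (-0.12, adjusted p = 0.060) or without Pim1-/- replicate 1 (-0.12, adjusted p = 0.050), passed with the replicate number as a block (adjusted p = 0.011), and turned to 0.16 with quantile normalization and 0.12 with TPM. LPS raised Bax by 0.19 in WT cells (SE 0.05, adjusted p = 0.0024, limma), a direction that turned to -0.93 with quantile normalization and -0.62 with TPM. In Pim1-/- cells the response was 0.08 (SE 0.05, adjusted p = 0.15, limma), or 0.08 with adjusted p = 0.019 under the block, and turned to -0.78 and -0.58 under those scalings. It also passed without untreated replicate 1 (0.11, adjusted p = 0.090, limma) or without LPS-treated replicate 2 (0.12, adjusted p = 0.043, limma). Bax exons overlap those of Gm45808 on the same strand over 192 nt, and no value for that gene was used here. Strand could not separate fragments of that stretch, so Bax is uncertain to that extent.

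Bak1, which encodes the other effector BAK, was higher in untreated and lower in LPS-treated Pim1-/- cells than in WT. It was at 35.3, 35.7 and 35.6 FPKM in untreated WT and 44.1, 43.3 and 48.3 FPKM in untreated Pim1-/- libraries. LPS-treated cells had 98.5, 92.1 and 98.7 FPKM in WT and 75.0, 70.0 and 79.6 FPKM in Pim1-/- libraries. No groups overlapped, and the order of the genotypes was opposite in the 2 treatments. Pim1-/- minus WT, the log2 difference was 0.34 without treatment (SE 0.05, adjusted p = 3.1e-05) and -0.36 after LPS (SE 0.05, adjusted p = 1.3e-05) by limma. The value after LPS was smaller with quantile normalization (-0.11, adjusted p = 0.084) and with TPM (-0.16, adjusted p = 0.025), both by limma. LPS raised Bak1 by 1.41 in WT and 0.71 in Pim1-/- cells, a difference in response of -0.70 (SE 0.07, adjusted p = 9.9e-07, limma). In Pim1-/- cells the rise did not pass with quantile normalization (0.05) or TPM (0.06), where it was 0.23 and 0.68 above the median of all genes. Relative to Bax, Bak1 stood at 0.219 ± 0.009 (SD, n = 3) in untreated WT, 0.275 ± 0.016 in untreated Pim1-/-, 0.521 ± 0.003 in LPS-treated WT and 0.430 ± 0.022 in LPS-treated Pim1-/- cells. Bak1 exons overlap Ggnbp1 on the opposite strand over 614 nt, but Ggnbp1 averaged under 1 FPKM in all groups (0.128 to 0.883 FPKM).

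Of the 5 BH3-only genes among the 10 members, Bcl2l11 differed most between genotypes. It encodes BIM, which binds all survival proteins of the family and can activate BAX and BAK. Its gene lies at chr2:128126038-128162547 on the + strand of GRCm38 (mm10). Because LPS and genotype both moved it, the 250 bases before its first annotated start (chr2:128125788-128126037, + strand, RefSeq, GRCm38.p6) are shown, with the forkhead (FOXO) motif TGTTTAC, found here on the opposite strand at -227 to -221 from the start, in capitals:
Bcl2l11: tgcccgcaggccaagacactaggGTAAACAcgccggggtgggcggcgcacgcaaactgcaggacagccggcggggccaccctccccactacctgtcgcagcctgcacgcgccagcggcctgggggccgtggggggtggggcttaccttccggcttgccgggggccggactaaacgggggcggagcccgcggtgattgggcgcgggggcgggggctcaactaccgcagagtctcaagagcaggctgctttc
That motif, searched on both strands, is in 3.17% of 32851 such windows. FOXO factors are known activators of Bcl2l11 and Bbc3. No match was found in the second Bcl2l11 window, and a match is a description of letters only.

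Bcl2l11 was at 24.0, 24.8 and 23.5 FPKM in untreated WT and at 9.41, 9.24 and 10.1 FPKM in untreated Pim1-/- libraries. With LPS the WT libraries had 60.1, 62.5 and 59.9 FPKM and the Pim1-/- libraries 35.0, 37.2 and 39.2 FPKM. Every Pim1-/- library lay below every WT library of the same treatment. Untreated Pim1-/- cells had 0.398 times the WT mean, and the log2 fold change was -1.24 (SE 0.05, adjusted p = 3.8e-12, limma). It ranked 527 by size among the 10581 genes and was the 1 member called between genotypes. LPS-treated Pim1-/- cells had 0.610 times the WT mean and a log2 fold change of -0.70 (SE 0.05, adjusted p = 3.3e-09, limma). LPS raised Bcl2l11 by 1.30 in WT and 1.85 in Pim1-/- cells, and the responses differed by 0.55 (SE 0.07, adjusted p = 6.2e-06, limma). Both directions held under all scalings, with LPS responses no smaller than 0.52 in WT and 1.25 in Pim1-/- cells, both with TPM.

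Bid, whose protein links death receptors to mitochondria after its cleavage, was higher in Pim1-/- cells in both treatments. It was at 28.7, 28.5 and 29.5 FPKM in untreated WT, 46.0, 43.3 and 43.0 FPKM in untreated Pim1-/-, 43.0, 45.6 and 45.2 FPKM in LPS-treated WT and 56.0, 56.9 and 54.5 FPKM in LPS-treated Pim1-/- libraries. The genotypes did not overlap in either treatment. On the deposited scale, untreated Pim1-/- and LPS-treated WT cells did not differ beyond their spread (difference 0.02, SE 0.04, adjusted p = 0.72, limma). Against untreated WT, the former stood at 0.78 with quantile normalization and 0.66 with TPM, and the latter at -0.02 and -0.18. Bid differed between genotypes by 0.59 on the log2 scale without treatment (SE 0.04, adjusted p = 4.2e-09) and 0.32 after LPS (SE 0.04, adjusted p = 4.2e-06) by limma. LPS raised Bid by 0.61 in WT and 0.33 in Pim1-/- cells, but these directions turned to -0.02 and -0.29 with quantile normalization and to -0.18 and -0.32 with TPM. Since Bcl2l11 and Bid moved in opposite directions between genotypes, the ratio of Bid to Bcl2l11 was 1.20 ± 0.05 in untreated WT against 4.61 ± 0.32 in untreated Pim1-/- cells, and 0.733 ± 0.019 against 1.51 ± 0.11 after LPS (SD, n = 3 each). Bid exons overlap Bcl2l13 on the opposite strand over 628 nt, and Bcl2l13 averaged 4.27 to 5.26 FPKM.

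Bad, the member whose protein Pim1 phosphorylates, showed small differences in mRNA. It was at 40.3, 40.4 and 40.6 FPKM in untreated WT and 43.8, 37.6 and 40.7 FPKM in untreated Pim1-/- libraries, which overlapped. After LPS it was at 46.4, 39.0 and 41.7 FPKM in WT and 39.9, 33.8 and 34.3 FPKM in Pim1-/- libraries, which overlapped as well. The log2 difference between untreated genotypes was 0.01 (SE 0.07, adjusted p = 0.95, limma). After LPS Bad was lower in Pim1-/- cells by -0.23 (SE 0.07, adjusted p = 0.0088, limma), but the difference was 0.01 with quantile normalization and -0.03 with TPM, and neither passed. The LPS response was 0.06 in WT (adjusted p = 0.42) and -0.17 in Pim1-/- cells (adjusted p = 0.034) by limma. The WT value turned to -0.69 with quantile normalization and -0.74 with TPM, and to -0.0050 without LPS-treated replicate 1. The Pim1-/- value did not pass without untreated replicate 1 (-0.12, adjusted p = 0.16) or without LPS-treated replicate 2 (-0.13, adjusted p = 0.14) or 3 (-0.14, adjusted p = 0.11) by limma. Bad exons overlap Gpr137 on the opposite strand over 524 nt, and Gpr137 averaged 8.66 to 12.9 FPKM. The libraries were made with a stranded kit, but whether the counting used strand is not given in the sources used here, so Bad is uncertain to that extent.

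Bbc3 and Pmaip1 encode PUMA and NOXA, the BH3-only proteins best known as p53 targets. Both were lower in untreated and higher in LPS-treated Pim1-/- cells, and LPS moved them in opposite directions in the 2 genotypes. Bbc3 lies at chr7:16308393-16318205 on the + strand and has 3 annotated start windows. Window 1 (chr7:16309333-16309582) holds overlapping matches to the NF-κB motif at -137 to -127, and window 2 (chr7:16310011-16310260) holds the FOXO motif at -167 to -161 and an E2F motif, GCGGGAA, at -238 to -232. They are shown from RefSeq (GRCm38.p6, + strand) with the matches in capitals, because Bbc3 responded to LPS and to genotype in combination:
Bbc3 window 1: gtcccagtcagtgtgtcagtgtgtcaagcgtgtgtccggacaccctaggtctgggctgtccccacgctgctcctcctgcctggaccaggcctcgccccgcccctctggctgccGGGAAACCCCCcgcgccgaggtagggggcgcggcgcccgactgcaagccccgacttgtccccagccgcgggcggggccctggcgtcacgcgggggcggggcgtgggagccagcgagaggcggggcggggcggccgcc
Bbc3 window 2: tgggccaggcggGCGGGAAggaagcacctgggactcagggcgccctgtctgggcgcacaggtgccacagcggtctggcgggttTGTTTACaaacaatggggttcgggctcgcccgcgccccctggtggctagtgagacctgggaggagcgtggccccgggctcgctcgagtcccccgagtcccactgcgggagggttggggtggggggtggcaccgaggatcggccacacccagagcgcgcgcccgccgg
The NF-κB motif is in 7.25% and the E2F motifs (TTCCCGC or TTGGCGC) in 5.62% of all windows, on either strand. Of the 10 members 9 had an entry, in 15 windows, and Pmaip1 had none. No other member window held the FOXO or E2F motif, and the NF-κB motif was found in 1 more, of Bcl2l1. The AP-1 motif TGANTCA (6.75% of windows) and the interferon response motif GAAANNGAAA (2.98%) were found in 0 of the 15, and the E-box CACGTG (6.02%) in 1 of Bax and 1 of Bbc3.

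Bbc3 was at 16.4, 15.7 and 17.2 FPKM in untreated WT and 8.99, 8.72 and 10.2 FPKM in untreated Pim1-/- libraries. After LPS it was at 8.59, 8.55 and 9.09 FPKM in WT and 11.1, 11.8 and 10.9 FPKM in Pim1-/- libraries. No group overlapped another within a genotype or a treatment. Between genotypes the log2 fold change was -0.76 in untreated cells (SE 0.06, adjusted p = 1.4e-08) and 0.33 after LPS (SE 0.06, adjusted p = 8.8e-05) by limma. With LPS Bbc3 fell by 0.84 in WT cells and rose by 0.25 in Pim1-/- cells (adjusted p = 8.1e-04, limma), although the rise turned to -0.36 with TPM, 0.25 above the median of all genes. The responses differed by 1.09 (SE 0.08, adjusted p = 2.4e-08, limma), the 1 member called for that difference.

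Pmaip1 was at 5.98, 6.11 and 6.20 FPKM in untreated WT, 4.63, 3.98 and 4.38 FPKM in untreated Pim1-/-, 5.17, 5.56 and 4.63 FPKM in LPS-treated WT and 6.05, 5.95 and 5.96 FPKM in LPS-treated Pim1-/- libraries. The genotypes did not overlap in either treatment. On the deposited scale, LPS-treated Pim1-/- and untreated WT cells did not differ beyond their spread. With TPM, untreated Pim1-/- cells stood at -0.40 against untreated WT, and LPS lowered them further. Pim1-/- minus WT, its log2 difference was -0.41 without treatment (SE 0.06, adjusted p = 1.6e-05) and 0.19 after LPS (SE 0.06, adjusted p = 0.0087) by limma. With LPS Pmaip1 fell by 0.22 in WT cells and rose by 0.39 in Pim1-/- cells, a difference in response of 0.61 (SE 0.09, adjusted p = 1.8e-05, limma). With TPM the response in Pim1-/- cells turned to -0.17, which was 0.44 above the median of all genes, and with quantile normalization the WT response was -0.12, or 0.07 above that median.

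**Figure D2:**
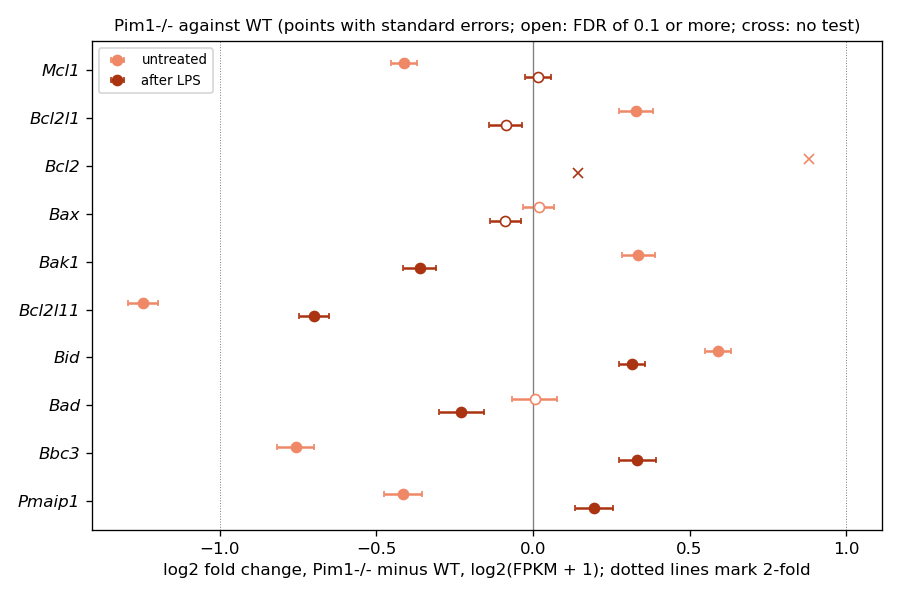
Log2 fold change of each member between Pim1-/- and WT cells (x axis, on log2(FPKM + 1)) untreated and after LPS, with standard errors from limma. Open points had an adjusted p of 0.1 or more, crosses mark Bcl2, given with no test, and dotted lines mark 2-fold. Bak1, Bbc3 and Pmaip1 had opposite signs in the 2 treatments, at 0.34 and -0.36, -0.76 and 0.33, and -0.41 and 0.19, while the values after LPS of Bcl2l1, Bax and Bad turned with quantile normalization and that of Bak1 shrank to -0.11.

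Between untreated genotypes 7 of the 9 members other than Bcl2 passed, against 78.8% of all genes. Of these 3 were higher and 4 lower, against 34.6% and 44.2% of all genes, and their libraries did not overlap for 7, against 78.4%. The 1 called member compares with 7.78% called among all genes. After LPS 6 of 9 passed, against 80.9%. Of these 3 were higher and 3 lower, against 37.6% and 43.4%, and 5 did not overlap, against 77.5%. No member was called, against 8.66%, while 6 of 9 had an unadjusted p under 0.05 by limma. The median absolute log2 fold change of the 9 was 0.41 untreated and 0.23 after LPS, and that of all genes 0.31 and 0.33. The counts that passed lie near those of all genes.

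LPS changed 8 of the 9 members in WT cells, against 91.2% of all genes. Of these 6 were higher and 2 lower, against 45.8% and 45.4%, and 8 did not overlap, against 90.4%. In Pim1-/- cells 8 passed, against 87.2%. Of these 7 were higher and 1 lower, against 43.2% and 44.0%, and 7 did not overlap, against 83.8%. Called were Bcl2l1, Bak1 and Bcl2l11 in WT cells (34.8% of all genes) and Mcl1 and Bcl2l11 in Pim1-/- cells (25.0%). With quantile normalization or TPM only Bbc3 was called in WT cells, and Mcl1 was not called in Pim1-/- cells. The median absolute log2 fold change by LPS was 0.64 in WT and 0.39 in Pim1-/- cells for these members, and 0.68 and 0.50 for all genes. The difference in response passed for 8 of the 9, against 68.5% of all genes. It was higher in Pim1-/- cells for 4 and lower for 4, against 32.7% and 35.8%, and 1 was called, against 6.67%. Its median absolute value was 0.43 for the members and 0.29 for all genes. The 2 LPS comparisons and the 2 genotype comparisons share libraries with the difference in response and are not independent of it.

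**Figure D3:**
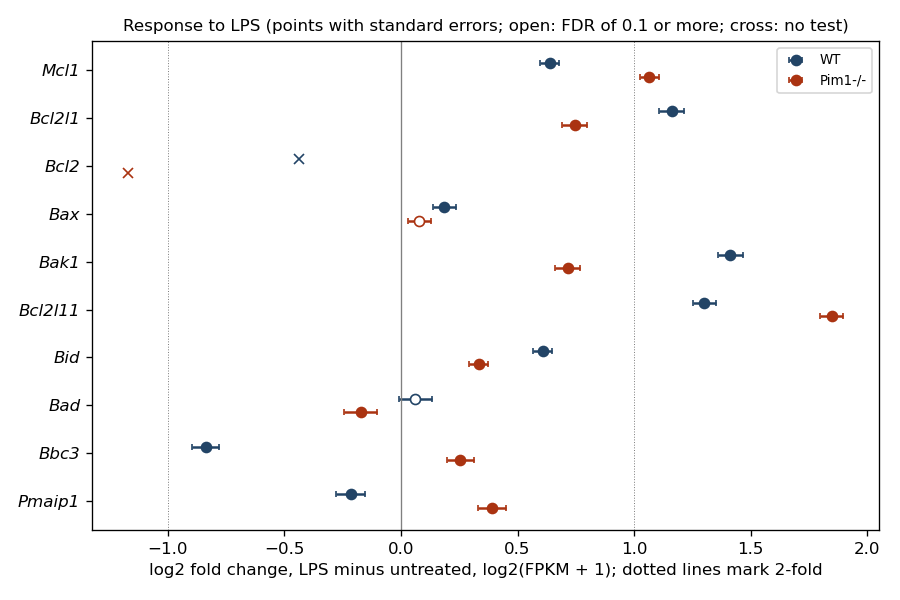
Log2 fold change of each member by LPS (x axis, on log2(FPKM + 1)) in WT and Pim1-/- cells, with standard errors from limma and open points for an adjusted p of 0.1 or more (crosses, Bcl2, with no test). Bcl2l11 rose in both genotypes, by 1.30 and 1.85, and Bbc3 and Pmaip1 had opposite signs in WT and Pim1-/- cells, but values in Pim1-/- cells of both, and values of Mcl1 (WT), Bid (both), Bax (both) and Bad (WT), turned with TPM.

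The order of the 4 groups on the FPKM scale differed from member to member. Bcl2l11 and Bak1 were highest in LPS-treated WT, then LPS-treated Pim1-/- cells, and each step of their orders passed on the deposited scale. The lowest group was untreated Pim1-/- for Bcl2l11 and untreated WT for Bak1. Bcl2l1 and Mcl1 were both highest after LPS, where the genotypes did not differ beyond their spread, and below that the order was untreated Pim1-/- then WT for Bcl2l1 and the reverse for Mcl1. For Bax no neighbours differed beyond their spread. For Bad this held for the upper 3 groups, and LPS-treated Pim1-/- cells were below untreated WT cells by -0.17 (adjusted p = 0.038, limma). For Bbc3 the order was untreated WT, LPS-treated Pim1-/-, then untreated Pim1-/- and LPS-treated WT cells, whose difference of 0.08 did not pass (adjusted p = 0.21, limma). For Pmaip1 untreated WT and LPS-treated Pim1-/- cells did not differ beyond their spread (difference 0.02, adjusted p = 0.73, limma) and were followed by LPS-treated WT and untreated Pim1-/- cells. These orders are those of the values as deposited and changed with the scaling. With quantile normalization and TPM, LPS-treated WT cells were below untreated WT cells for Mcl1 (-0.66 and -0.17) and below LPS-treated Pim1-/- cells (0.29 and 0.22). With TPM, LPS-treated Pim1-/- cells were below untreated Pim1-/- cells for Bbc3 (-0.36) and Pmaip1 (-0.17). For Bak1 the step between these groups did not pass with quantile normalization (0.05) or TPM (0.06), nor did that of Bcl2l1 with TPM (0.09). For Bcl2l11 with TPM, untreated Pim1-/- cells were at -1.23 against untreated WT, and LPS raised them by 1.25. That placed LPS-treated Pim1-/- cells near untreated WT cells.

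Summed over the 10 members, the survival genes held 47.3% ± 1.4 (SD, n = 3) of the FPKM in untreated WT and 41.8% ± 1.2 in untreated Pim1-/- cells, with ranges of 45.8 to 48.7% and 41.0 to 43.2% that did not overlap. After LPS they held 50.9% ± 0.9 in WT and 53.8% ± 1.2 in Pim1-/- cells. Effectors held 33.3% ± 1.2 of the sum in WT and 38.4% ± 0.8 in Pim1-/- cells without treatment, and 31.2% ± 1.0 and 29.1% ± 1.3 with LPS. The BH3-only genes together went from 19.5% ± 0.3 (WT) and 19.8% ± 0.5 (Pim1-/-) untreated to 17.9% ± 0.2 and 17.1% ± 0.1 after LPS. Untreated and LPS-treated ranges of this BH3-only share did not overlap in either genotype. Within them, Bcl2l11 held 4.04% ± 0.09 in untreated WT against 1.76% ± 0.08 in untreated Pim1-/- cells, and 6.74% ± 0.27 against 4.34% ± 0.27 after LPS. These shares do not depend on the scaling of a library to its total. Relative to Mcl1, Bcl2l11 stood at 0.0958 ± 0.0017 in untreated WT, 0.0509 ± 0.0032 in untreated Pim1-/-, 0.155 ± 0.006 in LPS-treated WT and 0.0938 ± 0.0071 in LPS-treated Pim1-/- cells (SD, n = 3 each).

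**Figure D4:**
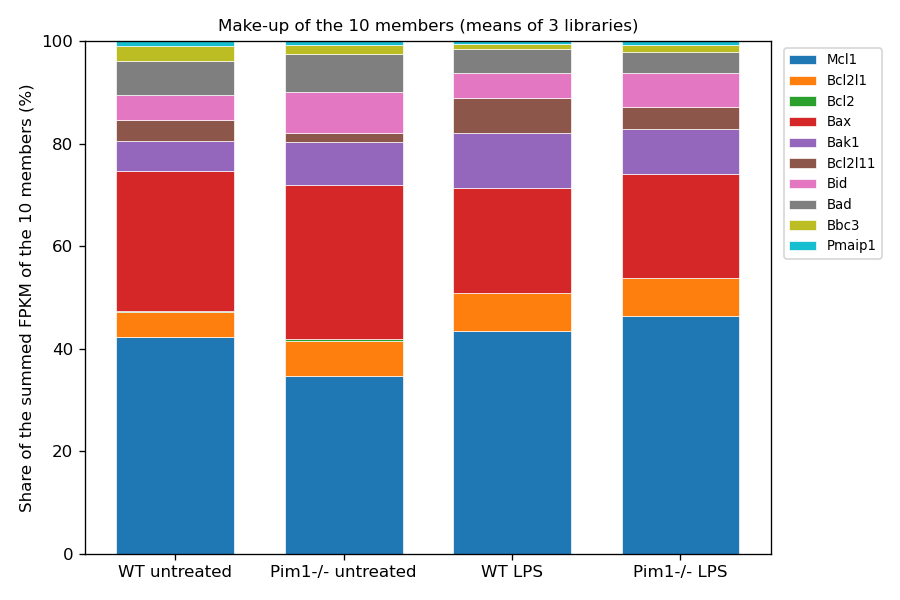
Share of each member in the summed FPKM of the 10 (y axis, percent, from 0), as the mean of 3 libraries in each of the 4 groups (x axis). Mcl1 and Bax made up most of each bar, Mcl1 at 42.2, 34.6, 43.4 and 46.3% and Bax at 27.3, 30.2, 20.5 and 20.4% in untreated WT, untreated Pim1-/-, LPS-treated WT and LPS-treated Pim1-/- cells.

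Of 16 further genes of the family, 9 passed the filter on low values. The survival genes of the Bcl2a1 cluster, which encode A1, were the most abundant family mRNA after LPS. Bcl2a1a, Bcl2a1b and Bcl2a1d are near-identical copies that share reads, so the split between them is uncertain, and they were summed. Their sum was 195 ± 11.9 FPKM (SD, n = 3) in untreated WT, 245 ± 14.7 in untreated Pim1-/-, 3866 ± 89.2 in LPS-treated WT and 2832 ± 191 in LPS-treated Pim1-/- cells. Relative to Mcl1 this was 0.773 ± 0.016, 1.30 ± 0.06, 9.86 ± 0.24 and 7.14 ± 0.31 in the same order. Bmf, a BH3-only gene, went the other way, at 11.4 ± 0.325 FPKM in untreated WT, 2.89 ± 0.173 in untreated Pim1-/-, 0.060 ± 0.015 in LPS-treated WT and 0.082 ± 0.010 in LPS-treated Pim1-/- cells (SD, n = 3 each). Bmf was lower in untreated Pim1-/- cells by -1.67 (SE 0.05, adjusted p = 2.1e-13, limma). Bnip3, a BH3-like gene of mitophagy, was lower in Pim1-/- cells after LPS, at 7.94 against 19.4 FPKM, a log2 fold change of -1.19, whereas its relative Bnip3l was higher, at 37.3 against 22.9 FPKM, with 0.68. Between untreated genotypes 2 of the 9 were higher and 3 lower, against 34.6% and 44.2% of all genes, and after LPS 1 was higher and 5 lower, against 37.6% and 43.4%, or 3 higher and 4 lower with TPM. Bcl2a1a, at 0.083 (WT) and 0.087 FPKM (Pim1-/-) untreated, passed the filter only through LPS-treated libraries, and Bmf only through untreated ones. The directions of these genes with LPS therefore carry no test, but the LPS counts and medians of the 9 include them. With LPS 5 of the 9 rose and 4 fell in WT, against 45.8% and 45.4% of all genes. In Pim1-/- cells 4 rose and 5 fell, against 43.2% and 44.0%, while TPM gave 4 that rose and 5 that fell in each genotype. Their median log2 fold changes were 0.005, -0.28, 0.43 and -0.16 in that order, against -0.05, -0.03, 0.002 and -0.01 for all genes, and the WT response turned to -0.35 with TPM.

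**Figure D5:**
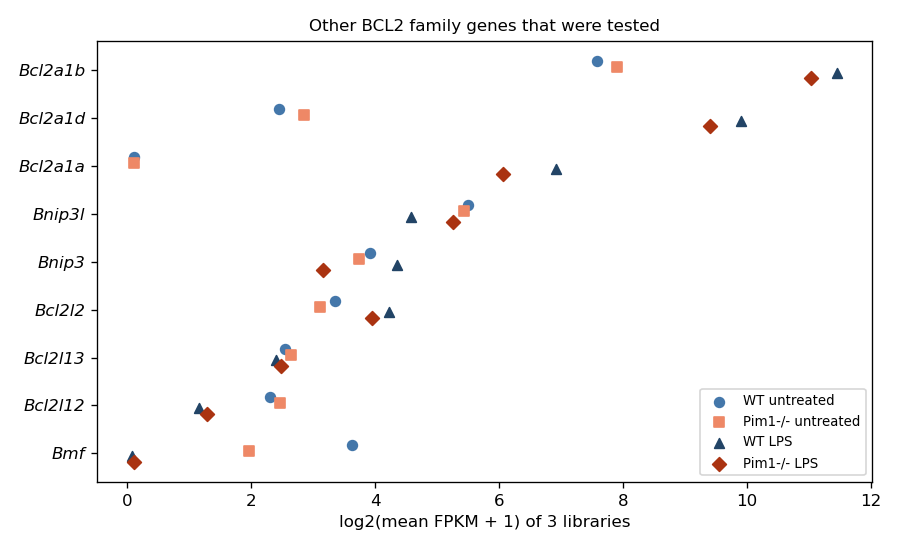
Log2(mean FPKM + 1) of 3 libraries (x axis) for the 9 other BCL2 family genes that passed the filter (y axis), by group. The Bcl2a1 genes, whose reads cannot be split reliably, lay far higher after LPS in both genotypes, while Bmf fell from 11.4 FPKM (WT) and 2.89 FPKM (Pim1-/-) to under 0.1 FPKM.

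Among the kinases, 14-3-3 proteins and phosphatases that act on BAD, 22 of 24 genes were lower in Pim1-/- cells after LPS and none was higher, against 43.4% lower among all genes, with a median log2 fold change of -0.38 against -0.03. With quantile normalization 17 were lower and 1 higher (median -0.17), and with TPM 15 were lower and 2 higher (median -0.18). The list contains Pim1 itself. Its next largest differences were those of the kinase gene Akt2, at 84.2 FPKM (WT) and 42.9 FPKM (Pim1-/-; -0.96), and of the 14-3-3 gene Ywhag, at 138 and 74.4 FPKM (-0.89). In untreated cells 7 were higher and 9 lower, against 34.6% and 44.2% of all genes, with a median of -0.01 that turned to 0.05 with TPM. Pim2 and Pim3, the other Pim kinases, were at 1.70 and 5.47 FPKM in untreated WT and 1.92 and 3.90 FPKM in untreated Pim1-/- cells. With LPS 18 rose and 5 fell in WT, against 45.8% and 45.4% of all genes. In Pim1-/- cells 14 rose and 6 fell, against 43.2% and 44.0%. With TPM, however, 8 rose and 14 fell in WT and 5 rose and 17 fell in Pim1-/- cells. Under each scaling tried the 14-3-3 gene Ywhaz rose, by 1.99 and 1.24 on the FPKM scale. The median LPS response was 0.57 in WT and 0.26 in Pim1-/- cells, turning to -0.16 and -0.32 with TPM and in Pim1-/- cells to -0.14 with quantile normalization. The difference in response was lower for 18 and higher for 3, against 35.8% and 32.7% of all genes, with a median of -0.30. With quantile normalization it was lower for 11 and higher for 5.

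Among 10 transcription factors known to act on BH3-only genes, Foxo3 was at 11.5 ± 0.477 FPKM in untreated WT, 5.56 ± 0.969 in untreated Pim1-/-, 0.936 ± 0.067 in LPS-treated WT and 1.42 ± 0.153 in LPS-treated Pim1-/- cells (SD, n = 3 each). Its log2 fold change was -0.93 between untreated genotypes, and with LPS it fell by 2.69 in WT and by 1.43 in Pim1-/- cells. A link between Foxo3 and Bcl2l11 was not tested. Myc, which can raise BIM and PUMA, was at 2.01 FPKM in untreated WT and 5.65 FPKM in untreated Pim1-/- cells (1.15), and its LPS response was lower by -1.59 in Pim1-/- cells. Egr1 averaged 3.33 FPKM in untreated WT and 0.607 FPKM in untreated Pim1-/- cells (-1.43). It passed the filter only through WT libraries, so its difference is given with no test, though it is counted below. E2f1, a factor of the cell cycle, was higher after LPS (1.00). Of the 10 genes 3 were higher and 6 lower between untreated genotypes, against 34.6% and 44.2% of all genes. After LPS 4 were higher and 4 lower, against 37.6% and 43.4%. Their median absolute log2 fold change was 0.64 and 0.32, against 0.31 and 0.33 for all genes. LPS raised 4 in both genotypes, against 45.8% (WT) and 43.2% (Pim1-/-) of all genes. Among them were Cebpb by 3.09 and 3.07 and Atf3 by 2.40 and 2.59. It lowered 6 in WT and 4 in Pim1-/- cells, against 45.4% and 44.0%, with 7 lowered in Pim1-/- cells under TPM. Foxo1, counted in this list, passed the filter only through untreated libraries, so its LPS responses carry no test.

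In the p53 pathway, 16 of 20 genes were tested. Between untreated genotypes 4 were higher and 11 lower, against 34.6% and 44.2% of all genes, with a median of -0.21. Pidd1, counted here and below, passed the filter only through untreated Pim1-/- libraries, so its differences carry no test. It averaged 1.49 FPKM there against 0.521 FPKM in untreated WT (0.71). Sesn1, a stress gene, had the largest difference, at 129 FPKM against 48.6 FPKM in the Pim1-/- group (-1.39), followed by Gadd45a (-1.14) and Btg2 (-1.12). After LPS 5 were higher and 9 lower, against 37.6% and 43.4%, or 7 and 7 with TPM. Cdkn1a, which encodes the cell cycle inhibitor p21, was at 3024 FPKM against 1236 FPKM in the Pim1-/- group (-1.29), with Phlda3 at -0.98 and Trp53inp1 at 0.94. With LPS 8 rose and 8 fell in each genotype (with TPM, 6 rose and 9 fell in WT, 7 rose and 8 fell in Pim1-/-). Of all genes 45.8% rose and 45.4% fell in WT, and 43.2% and 44.0% in Pim1-/- cells. Cdkn1a rose by 5.88 and 4.42 and the death receptor gene Fas by 3.99 and 3.83, while Sesn1 fell by 5.39 and 3.92. The difference in response was higher for 8 genes and lower for 4, against 32.7% and 35.8% of all genes. It was also higher for both Bbc3 and Pmaip1, and a link to the p53 pathway was not tested.

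Downstream of the mitochondria, 15 of 15 caspase and apoptosome genes were tested. In untreated cells 7 were higher and 6 lower in Pim1-/- cells, against 34.6% and 44.2% of all genes. The list was led by Cycs, which encodes cytochrome c, at 31.5 against 12.6 FPKM (1.25), then Vdac3 (0.56) and Casp6 (-0.47). After LPS 6 were higher and 6 lower, against 37.6% and 43.4% (7 and 2 with quantile normalization, 9 and 4 with TPM). Aifm1 was at 0.69 and Apaf1, the scaffold of the apoptosome, at -0.52. Endog, counted in this list, passed the filter only through untreated libraries, so its LPS responses carry no test. With LPS 9 rose and 6 fell in WT, against 45.8% and 45.4% of all genes. In Pim1-/- cells 7 rose and 5 fell, against 43.2% and 44.0%. The balance turned with quantile normalization (WT, 7 rose and 8 fell, Pim1-/-, 5 and 10) and with TPM (WT, 5 and 8, Pim1-/-, 4 and 8). Among those that rose were Cycs by 3.32 and 1.70 and Casp8 by 1.87 and 1.46. Of 15 genes for inhibitors of apoptosis and death receptor adaptors 14 were tested. The largest difference was that of Birc5, which encodes survivin, a protein of dividing cells, at 88.0 against 4.41 FPKM untreated (4.04) and 30.8 against 2.36 FPKM after LPS (3.24). In this list 3 were higher and 7 lower untreated, against 34.6% and 44.2% of all genes, or 5 and 6 with TPM. After LPS 2 were higher and 9 lower, against 37.6% and 43.4%, or 5 and 7 with TPM. Ripk3 was higher by 0.96 and 0.95 and Birc3, which encodes cIAP2, lower by -1.10 and -0.52. LPS raised 10 in each genotype, against 45.8% (WT) and 43.2% (Pim1-/-) of all genes. With TPM it raised 5 in WT and 6 in Pim1-/- cells. Cflar, which encodes the caspase-8 inhibitor c-FLIP, rose by 4.92 and 4.80, Mlkl by 4.58 and 3.58 and Birc3 by 3.54 and 4.11.

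Of 10 genes for turnover of MCL1 protein, 9 were tested. Between untreated genotypes 2 were higher and 7 lower, against 34.6% and 44.2% of all genes, or 2 and 4 with TPM, with Fbxw7 (-0.36), Gsk3b (-0.35) and Rnf7 (0.31) differing most. After LPS 3 were higher and 5 lower, against 37.6% and 43.4%, or 4 and 4 with TPM. Largest were the differences of the ubiquitin ligase genes Huwe1 and March5, each at -0.46, and the deubiquitinase gene Usp9x (-0.43). March5 averaged 21.7 FPKM (WT) and 20.4 FPKM (Pim1-/-) without treatment, then 325 and 236 FPKM with LPS, a rise by 3.84 and 3.47. Usp9x rose by 1.27 and 0.96. With LPS 6 rose and 2 fell in WT, against 45.8% and 45.4% of all genes. In Pim1-/- cells 6 rose and 1 fell, against 43.2% and 44.0%. With TPM, however, 2 rose and 6 fell in WT and 2 rose and 5 fell in Pim1-/- cells.

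The genes most like the 5 members whose group means spanned more than 2-fold were found by Pearson's r on log2(FPKM + 1) over the 12 libraries, a description that shares the 4 groups and has no test. For Bcl2l11 they were Pnrc1, Sema4d and Ankrd44, with r of 0.996 to 0.997. For Bak1 they were Ubash3b, Tgm2 and Ezr (0.995 to 0.996), for Mcl1 Ly9, Hsd17b11 and Fam46a (0.995 to 0.997), and for Bcl2l1 Ets2, Pfkp and Txnrd1 (0.993 to 0.995). For Bcl2 they were Ccnf, Polh and Wdr76 (0.990 to 0.992). That r rests on the high group of Bcl2, untreated Pim1-/- cells at a mean of 1.86 FPKM, through which alone it passed the filter. The means were 0.553 FPKM in untreated WT, and 0.150 (WT) and 0.271 FPKM (Pim1-/-) after LPS, where fragments were few.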

How the data were processed

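RNA-seq of 12 libraries, 3 in each of 4 groups set by the labels, was analysed. Per the submitters' processing notes and the methods, the authors used bcl2fastq 2.20.0.422, cutadapt 1.18, TopHat2 2.0.13 and Cuffdiff 2.2.1, and deposited 1 value for each gene in each library. No unit is named, and the deposited values were read as FPKM from the use of Cuffdiff. The notes name mm10, the methods rat rn5, and the gene names are mouse symbols. Annotation and library normalization: not given in the sources used here. Since FPKM hold no counts, depth was estimated from the steps between low values, 77.6% of 2841 of which lay within 0.1 of a whole number of fragments. This gave 16340000 to 22210000 fragments in genes per library if each gene has its median transcript length, and 36050000 to 46500000 with its longest. Precision is limited by fragments for Bcl2 and by 3 libraries a group elsewhere.

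No scaling was added. Genes that reached 1 FPKM in 3 or more libraries were fitted on log2(FPKM + 1) in R 4.3.3 with limma 3.58.1, with a mean for each group and a mean-variance trend, and p-values were adjusted by Benjamini-Hochberg over 10581 genes. The fit was tested on simulated data. Figures were drawn with matplotlib 3.10.9 in Python 3.11.15 (numpy 2.4.6, pandas 2.3.3). Members and lists were chosen with earlier results of these data known. Named were all members and Pim1, the 3 genes of each list with the largest change among those that passed in each comparison, and the 3 genes most like each member whose means spanned more than 2-fold. Pim2, Pim3, Gpr137, Ggnbp1, Bcl2l13, D630008O14Rik, Gm45808 and Gm26885 were added outside this rule, by function or position. Bub1, Endog and Foxo1 were added for how they passed the filter. Some genes that the rule names are not reported here. Same-numbered libraries deviated together over 3646 genes between untreated genotypes (r = 0.33, 0.37 and 0.46) and between treatments in Pim1-/- cells (0.43, 0.54 and 0.68), so the numbers pair these. The labels do not say what a number marks. Alternatives were a pseudocount of 0.1, no filter, a filter of 5 FPKM, median-ratio scaling, quantile normalization, TPM, only the groups compared, a replicate block, limma without a trend and leaving out each library.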

Additional observations from a re-analysis of the deposited data

Results flagged for a closer look

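Responses to LPS were unequal in the 2 genotypes for 8 of the 9 members other than Bcl2 in limma's interaction term. Given as the log2 response in Pim1-/- cells minus that in WT cells, the difference was 1.09 for Bbc3, 0.61 for Pmaip1, 0.55 for Bcl2l11 and 0.43 for Mcl1, whose responses were more positive in Pim1-/- cells. It was -0.70 for Bak1, -0.42 for Bcl2l1, -0.27 for Bid and -0.23 for Bad, whose responses were more negative or smaller there. Of all genes tested 68.5% passed the same test. For Bcl2 the difference was -0.73, given as a value with no test because Bcl2 passed the filter on low values only through the untreated Pim1-/- libraries. The difference for Bad had an adjusted p of 0.055 by limma and was lost without untreated Pim1-/- replicate 1 (-0.18), LPS-treated WT replicate 1 (-0.17), or LPS-treated Pim1-/- replicate 2 (-0.19) or 3 (-0.20), and with quantile normalization (-0.03) or TPM (-0.09). Groups of 3 libraries are too small for a test of single outlying libraries.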

How the results depend on the processing

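Of 435 member values under other settings, 402 kept their direction and side of the threshold, 7 no longer passed, 5 newly passed and 21 turned direction, all 21 with quantile normalization or TPM. That tally includes Bcl2, which is otherwise given with no test. Quantile normalization turned Bcl2l1 (0.16), Bad (0.0076) and Bax (0.16) between genotypes after LPS, Mcl1 (-0.66), Bad (-0.69), Bax (-0.93) and Bid (-0.020) for LPS in WT, Bax (-0.78) and Bid (-0.29) for LPS in Pim1-/- cells, and Bax (0.15) for the difference in response. TPM turned Bcl2l1 (0.12) and Bax (0.12), Mcl1 (-0.17), Bad (-0.74), Bax (-0.62) and Bid (-0.18), Bax (-0.58), Bid (-0.32), Pmaip1 (-0.17) and Bbc3 (-0.36), and Bax (0.041) in the same comparisons. Both scalings gave 1 called member for LPS in WT in place of 3, and 2 in place of 1 for the difference in response. A pseudocount of 0.1 or TPM gave 2 called members in place of 1 between untreated genotypes, and member counts here include Bcl2, which passed the filter through 1 group only. Among all genes, a pseudocount of 0.1 called 1442 after LPS in place of 916 and 1075 in place of 706 for the difference in response, and TPM called 4172 in place of 2649 for LPS in Pim1-/- cells. The cause was not tested.

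Of 360 values without 1 library, 339 were the same, 10 no longer passed, 5 newly passed and 6 turned direction. The tally and member counts of this paragraph also include Bcl2, whose difference between genotypes after LPS was among those that no longer passed. The ranges of those that turned were -0.048 to 0.060 for Bad and -0.013 to 0.051 for Bax between untreated genotypes, -0.0060 to 0.036 for Mcl1 after LPS and -0.0050 to 0.12 for Bad with LPS in WT, none of which had passed. With the replicate number as a block, 8 members in place of 7 passed after LPS, 10 in place of 9 for LPS in Pim1-/- cells and 10 in place of 9 for the difference in response, each through Bax, and no other call changed. The same numbers do not pair WT libraries across treatments (r = -0.10, 0.14 and 0.19) or all genotype pairs after LPS (0.02, 0.37 and 0.19). A filter of 5 FPKM removed Bcl2, and the fit of only the groups compared was not run for the difference in response, which needs all 4. Counts of fragments are too low to place Bcl2 after LPS.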
